A study of Mus musculus with 4 samples.

Results

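Expression of 41 genes of the sarcomere and the Z-disc was compared in the second heart field (SHF) region of wild-type mouse embryos and of embryos mutant for Hoxb1, a homeobox transcription factor of the posterior SHF. The members were a fixed list of gene symbols, and 39 of the 41 were in the deposited table of 15803 genes, while Myom2 and Myoz2 were not analysed here. The SHF region was microdissected at E8.5 from wild-type (WT) embryos and from Hoxb1Mu embryos, for which the methods of the study give the genotype Hoxb1-/-, with 2 RNA-seq libraries of each. The methods of the study use Hoxb1- as the name for the Hoxb1GFP and Hoxb1IRES-Cre alleles, without saying which of them these embryos carried. They list C57Bl/6J as a mouse strain without tying it to these embryos. Neither group was labelled with any treatment. Per these methods, RNA of several embryos of a genotype was pooled into a replicate. No source used here says whether the libraries of a genotype came from separate pools, so p-values measure only the spread between libraries, which may be technical. Hoxb1 itself had 682 and 617 normalised counts in WT 1 and WT 2 and 137 and 167 in Hoxb1Mu 1 and Hoxb1Mu 2, lower in both libraries labelled mutant but not absent.

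The sarcomere is the contractile unit of striated muscle. Thick filaments of myosin slide along thin filaments of actin, tropomyosin and troponin, titin runs from the M-band to the Z-disc, and the Z-disc anchors the thin filaments of neighbouring sarcomeres. At this stage the SHF consists of progenitors that have not yet built sarcomeres and lies beside the heart tube, whose cardiomyocytes already contract and use many of these genes. In whole tissue, more cells of a type and more RNA per cell cannot be told apart, and this holds for every difference below.

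Many cardiac sarcomere genes are known targets of SRF, which binds the CArG box, and of MEF2 factors. RefSeq promoters (GRCm38.p6) were at hand for 35 members, in 47 windows of the 250 bases before a transcription start, and 32851 such windows were searched in all. A CArG box stood on either strand in 10 of the 47 windows and in 1.47% of all windows. These windows belonged to Acta1, Actc1, Fhl2, Ldb3, Myl3, Myl7, Myom1 and Nebl. The Ldb3 windows overlap and hold the same CArG box, so the 10 windows are not all separate sites. A MEF2 site stood in 5 of the 47 windows, of Fhl2, Mybpc3, Synpo2l and Ttn, and in 2.92% of all windows. Of the other motifs searched, AGATAA was in 8 member windows (9.99% of all windows), CATTCC in 12 (12.6%), TNAAGTG in 3 (10.1%), TATAAA in 6 (12.4%) and TGATNNAT, the letters bound by HOX and PBX proteins together, in 4 (7.68%), those of Myl2, Nebl, Pdlim5 and Synpo2l. Motifs can share bases: a TATAAA match lay inside the MEF2 match of Fhl2, and in Myl2 a TATAAA match and a TGATNNAT match shared 1 base. A match describes letters only, and no binding was measured in these libraries. The 5 windows below are examples from members that DESeq2 called higher in Hoxb1Mu and that hold one of these sites, 3 with a CArG box and 2 with a MEF2 site; Acta1, Myl3 and Synpo2l also did and are not shown. Capitals mark the CArG box, the MEF2 site or, in Myom1, also the reverse complement of AGATAA, each 5′ to 3′ on the strand of the gene.

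Actc1 (chr2:114052876-114053125, minus strand): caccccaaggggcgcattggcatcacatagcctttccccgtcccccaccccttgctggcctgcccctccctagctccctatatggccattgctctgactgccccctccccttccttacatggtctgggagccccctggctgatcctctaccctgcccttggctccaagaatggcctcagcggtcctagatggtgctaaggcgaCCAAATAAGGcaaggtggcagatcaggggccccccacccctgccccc
Myl7 (chr11:5898783-5899032, minus strand): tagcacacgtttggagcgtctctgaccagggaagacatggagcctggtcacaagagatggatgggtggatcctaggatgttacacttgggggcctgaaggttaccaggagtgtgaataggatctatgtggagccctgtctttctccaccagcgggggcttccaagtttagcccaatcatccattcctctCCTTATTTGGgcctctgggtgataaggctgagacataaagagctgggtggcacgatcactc
Myom1 (chr17:71019307-71019556, plus strand): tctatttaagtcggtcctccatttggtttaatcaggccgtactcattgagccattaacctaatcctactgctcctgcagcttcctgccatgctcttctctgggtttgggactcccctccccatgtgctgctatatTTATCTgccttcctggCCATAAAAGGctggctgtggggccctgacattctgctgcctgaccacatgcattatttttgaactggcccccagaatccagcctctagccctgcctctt
Ttn (chr2:76982548-76982797, minus strand): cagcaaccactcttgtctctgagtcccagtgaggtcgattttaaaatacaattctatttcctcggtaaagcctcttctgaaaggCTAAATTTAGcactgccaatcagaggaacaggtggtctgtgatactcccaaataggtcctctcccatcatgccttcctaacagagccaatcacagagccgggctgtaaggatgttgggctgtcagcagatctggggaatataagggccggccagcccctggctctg
Mybpc3 (chr2:91117894-91118143, plus strand): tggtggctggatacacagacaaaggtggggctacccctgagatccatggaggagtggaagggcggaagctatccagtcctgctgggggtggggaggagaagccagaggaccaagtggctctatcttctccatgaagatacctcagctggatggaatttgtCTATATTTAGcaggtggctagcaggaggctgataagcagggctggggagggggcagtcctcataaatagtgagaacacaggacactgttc

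Of the 14 members called higher in Hoxb1Mu by DESeq2, each of which had a promoter window, 5 held a CArG box and 3 a MEF2 site. Of the other 21 members with a window, 3 and 1 did. For AGATAA the counts were 3 of the 14 called and 4 of the 21 other members, and for CATTCC 5 and 7. They were 2 and 4 for TATAAA, 1 and 2 for TNAAGTG, and 2 and 2 for TGATNNAT. Whether motifs differed between called and other members was not tested.

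As a whole the sarcomere genes took a larger part of the RNA in the mutant libraries. Values are normalised counts, that is reads per gene divided by a size factor of the library, and log2 fold changes are Hoxb1Mu over WT on the log2(normalised count + 1) scale. The 39 members summed to 119838 and 120197 normalised counts in WT and to 141071 and 156748 in Hoxb1Mu 1 and Hoxb1Mu 2. This was 0.360% and 0.365% of all normalised counts in WT, and 0.434% and 0.483% in Hoxb1Mu. The groups did not overlap, and Hoxb1Mu 2 was the higher of the mutant libraries. By gene, 33 members had a log2 fold change above 0 and 6 below, where 50.1% of all 15760 tested genes were above 0. The median over members was 0.36, and over all tested genes 0.00061. In 28 of the 39 members both Hoxb1Mu libraries lay above both WT libraries (26.4% of all tested genes), and in 2, Fhl2 and Tpm1, both lay below (27.1%). Hoxb1Mu 2 was above Hoxb1Mu 1 in 28 members (49.6%), with a median difference from the WT mean of 0.41 on the log2 scale in Hoxb1Mu 2 and 0.28 in Hoxb1Mu 1.

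The calls differed between tools. With limma no member reached an adjusted p under 0.05, as no gene of the table did (0%). The smallest adjusted p of a member was 0.0980, for Myh7, and 25 members, all higher in Hoxb1Mu, had an unadjusted p under 0.05 (8.8% of all tested genes in that direction). The edgeR quasi-likelihood test also called no gene (0%), with 0.0917 for Myh7 as the smallest adjusted p of a member and the same count of 25 before adjustment. DESeq2 on the recovered reads called 14 of the 39 members higher (1.5% of tested genes) and 0 lower (2.02%), and gave no adjusted p to Tcap, Lmod2 and Neb. Below, "called" means an adjusted p under 0.05 by DESeq2 with all 4 libraries, which limma did not bear out for any of these genes. Log2 fold changes and their standard errors (SE) are those of limma, also where a DESeq2 adjusted p stands beside them. The SE of DESeq2 itself could be larger, as for Myh6 with 0.28 against 0.17 by limma.

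**Figure D1:**
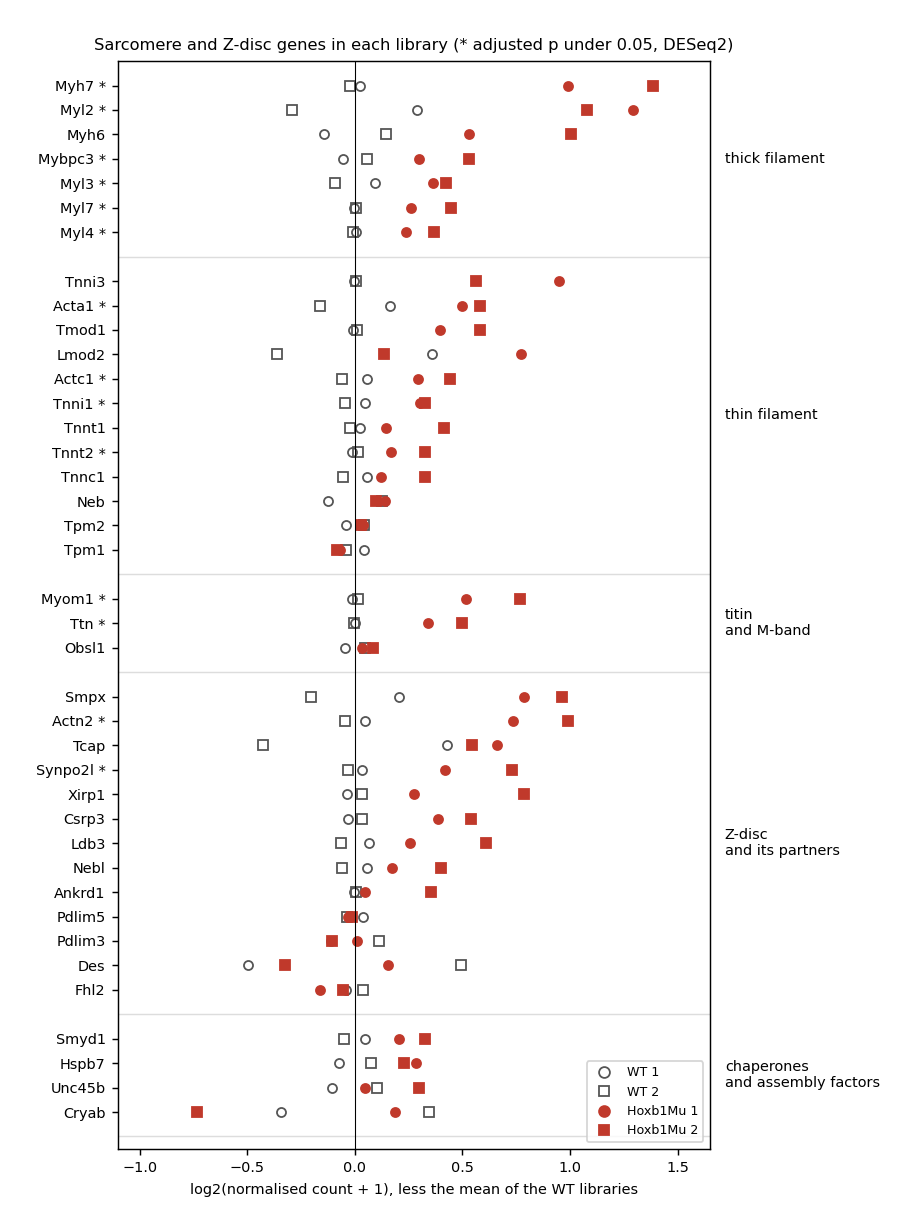
Each row is a member and each point a library, as log2(normalised count + 1) less the mean of the WT libraries, with open grey points for WT, filled red points for Hoxb1Mu, circles for replicate 1 and squares for replicate 2. All 7 thick filament genes have both red points to the right of both open points, while Tpm2, Pdlim5, Pdlim3 and Obsl1 stay near 0, and Des and Cryab spread widely within both groups.

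**Figure D2:**
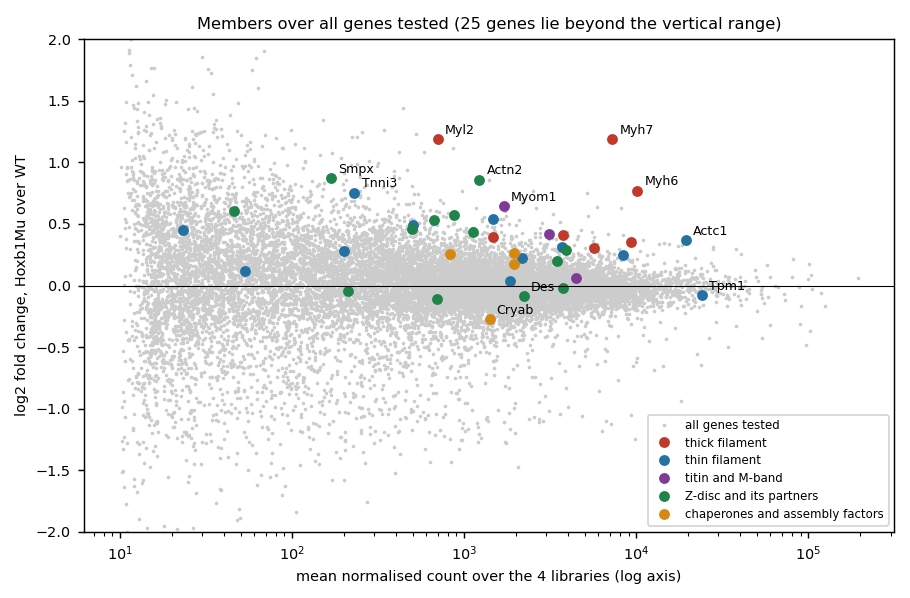
The horizontal log axis is the mean normalised count over the 4 libraries and the vertical axis the log2 fold change, with members coloured by part of the sarcomere over all 15760 tested genes in grey, 25 of which lie beyond the vertical range. Myh7, Myl2 and Actn2 stand above most genes of their level, and Cryab has the lowest value among the members.

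The thick filament carried the 2 highest log2 fold changes among the members, those of Myh7 and Myl2. Its 7 measured genes were all higher in Hoxb1Mu with no overlap between groups (26.4% of all tested genes), and 6 were called (1.5%). The middle gene differed by a log2 fold change of 0.41. Myh7, the β-myosin heavy chain that predominates in embryonic ventricles of the mouse, had 4443 and 4309 normalised counts in WT and 8704 and 11444 in Hoxb1Mu. It was 2.30-fold higher (log2 fold change 1.19 ± 0.12 (SE), DESeq2 adjusted p = 4.93e-07), and the WT libraries differed far less from each other than from the mutant ones. Myl2, the ventricular regulatory light chain, had 518 and 346 normalised counts in WT and 1041 and 897 in Hoxb1Mu. It was 2.24-fold higher (log2 fold change 1.19 ± 0.20, DESeq2 adjusted p = 9.04e-06), at a much lower level than Myh7. Myh6, the α-myosin heavy chain of the atria and early heart tube, had 6709 and 8214 normalised counts in WT and 10734 and 14910 in Hoxb1Mu. Although its log2 fold change of 0.77 ± 0.17 exceeded that of the other 4 thick filament genes, it was not called (DESeq2 adjusted p = 0.0755), and its libraries differed within both groups.

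The remaining thick filament genes differed by less but had tighter libraries. Myl7, the atrial regulatory light chain, had 8103 and 8175 normalised counts in WT and 9766 and 11096 in Hoxb1Mu (0.36 ± 0.07 on the log2 scale, DESeq2 adjusted p = 1.97e-04). Myl4, the atrial essential light chain, had 5079 and 5032 in WT and 5955 and 6527 in Hoxb1Mu (0.30 ± 0.06, DESeq2 adjusted p = 0.00167). In both genes the WT libraries were nearly equal. Myl3, the ventricular essential light chain, had 1352 and 1190 in WT and 1630 and 1701 in Hoxb1Mu (0.39 ± 0.08, DESeq2 adjusted p = 0.0166). Mybpc3, cardiac myosin-binding protein C, had 3097 and 3351 in WT and 3961 and 4653 in Hoxb1Mu (0.41 ± 0.09, DESeq2 adjusted p = 0.0018). For each of these 4 genes the lower mutant library was above the higher WT library.

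Among the 12 thin filament genes, 11 were higher and 1 lower. In 8 both mutant libraries lay above both WT libraries (26.4% of all tested genes), and 4 were called, all higher (1.5%). The median was 0.30 on the log2 scale. Actc1, cardiac α-actin, had 17620 and 16260 normalised counts in WT and 20734 and 22993 in Hoxb1Mu (0.37 ± 0.07 on the log2 scale, DESeq2 adjusted p = 2.57e-05). Acta1, skeletal α-actin, which the embryonic heart also expresses, had 1340 and 1071 in WT and 1691 and 1791 in Hoxb1Mu (0.54 ± 0.11, DESeq2 adjusted p = 0.00399). Both actins were thus higher in the mutant libraries, with the larger fold in the less abundant. Tnnt2, cardiac troponin T, which ties troponin to tropomyosin, had 7550 and 7698 in WT and 8575 and 9562 in Hoxb1Mu (0.25 ± 0.06, DESeq2 adjusted p = 0.0143). Tnni1, the slow skeletal inhibitory subunit that the fetal heart uses, had 3408 and 3192 in WT and 4072 and 4133 in Hoxb1Mu (0.31 ± 0.05, DESeq2 adjusted p = 0.00168). Tnni3, the inhibitory subunit of the adult heart, was far lower, at 169 and 170 in WT and 328 and 251 in Hoxb1Mu. Its log2 fold change of 0.76 ± 0.17 was the highest of the thin filament, with no overlap between groups, but DESeq2 did not call it (adjusted p = 0.0550).

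The tropomyosins did not follow the actins and troponins. Tpm1, the main tropomyosin gene of striated muscle, which smooth muscle and non-muscle cells also use, had 25447 and 24036 normalised counts in WT and 23543 and 23368 in Hoxb1Mu. Both mutant libraries were below both WT libraries, by a log2 fold change of -0.08 ± 0.05 that was not called (DESeq2 adjusted p = 0.476). Tpm2 had 1761 and 1864 in WT and 1858 and 1851 in Hoxb1Mu, with overlapping groups (0.03 ± 0.06, DESeq2 adjusted p = 0.913). Tnnt1, slow skeletal troponin T, had 182 and 176 in WT and 198 and 239 in Hoxb1Mu (0.28 ± 0.15, DESeq2 adjusted p = 0.660). Of the rest, Tnnc1, the calcium-binding troponin subunit, and Tmod1, which caps the pointed end of the filament, were higher without overlap (log2 fold changes 0.22 and 0.49) but not called, with DESeq2 adjusted p of 0.245 and 0.0585. Lmod2, which nucleates actin in muscle, and Neb, nebulin, were at 14.4 to 32.8 and 46.7 to 56.4 normalised counts over the 4 libraries, with overlapping groups.

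In titin and the M-band, 2 of 3 genes were called, both higher (1.5% of all tested genes). Ttn, titin, had 2673 and 2664 normalised counts in WT and 3383 and 3769 in Hoxb1Mu (0.42 ± 0.07 on the log2 scale, DESeq2 adjusted p = 1.41e-04). Myom1, myomesin, which crosslinks myosin at the M-band, had 1306 and 1330 in WT and 1887 and 2245 in Hoxb1Mu (0.64 ± 0.09, DESeq2 adjusted p = 9.62e-06). In both genes the difference between the WT libraries was small beside the difference between groups. Obsl1, a cytoskeletal adaptor expressed beyond muscle, had 4225 and 4512 in WT and 4463 and 4623 in Hoxb1Mu, with overlapping groups (0.06 ± 0.05, DESeq2 adjusted p = 0.779).

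Z-disc genes were divided. Of 13 measured, 9 lay above 0 and 4 below (median 0.43 on the log2 scale, 0.26 without Hoxb1Mu 2). DESeq2 called 2 of them, both higher (1.5% of all tested genes). Actn2, sarcomeric α-actinin, which crosslinks actin at the Z-disc, had 892 and 838 normalised counts in WT and 1439 and 1718 in Hoxb1Mu. It was 1.82-fold higher (log2 fold change 0.86 ± 0.10) and had the smallest DESeq2 adjusted p of all members, 2.73e-08. Synpo2l, an actin-associated protein of the Z-disc, had 716 and 686 in WT and 936 and 1165 in Hoxb1Mu (0.57 ± 0.12, DESeq2 adjusted p = 0.00704). Smpx, a small muscle protein encoded on the X chromosome, had 136 and 102 in WT and 204 and 230 in Hoxb1Mu (0.87 ± 0.19, DESeq2 adjusted p = 0.0605). Its fold was as large as that of Actn2, from far fewer counts, and it was not called. Xirp1, Csrp3 (muscle LIM protein), Ldb3 (an α-actinin partner) and Nebl (nebulette, the cardiac relative of nebulin) were higher without overlap by log2 fold changes of 0.53, 0.46, 0.43 and 0.29, with DESeq2 adjusted p between 0.0539 and 0.0793. Xirp1 had 528 and 554 normalised counts in WT and 655 and 934 in Hoxb1Mu, Ldb3 997 and 910 in WT and 1137 and 1453 in Hoxb1Mu, and Nebl 3669 and 3386 in WT and 3972 and 4651 in Hoxb1Mu. In all 3 genes Hoxb1Mu 2 lay well above Hoxb1Mu 1. Ankrd1, a stress-responsive partner of titin, had 3183 and 3207 in WT and 3301 and 4086 in Hoxb1Mu, so that Hoxb1Mu 1 was close to WT. Ankrd1 (0.20 ± 0.10) and Tcap (0.60 ± 0.35, at 26.0 to 56.4 normalised counts) were also higher without overlap, the latter with no adjusted p from DESeq2.

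The 4 Z-disc genes below 0 were Pdlim5, Pdlim3, Fhl2 and Des. Pdlim5 and Pdlim3, PDZ and LIM proteins that bind α-actinin, had overlapping groups and log2 fold changes of -0.02 ± 0.05 and -0.05 ± 0.14. Fhl2, a LIM protein of the Z-disc and the nucleus, had 698 and 738 normalised counts in WT and 642 and 691 in Hoxb1Mu. The groups did not overlap, but WT 1 and Hoxb1Mu 2 were nearly equal (log2 fold change -0.11 ± 0.09, DESeq2 adjusted p = 0.795). Des, desmin, the intermediate filament around the Z-disc, had 1562 and 3104 in WT and 2452 and 1757 in Hoxb1Mu, so that the widest gap lay within WT (-0.09 ± 0.32, DESeq2 adjusted p = 0.933).

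The chaperones and assembly factors differed least. Of 4 genes, 3 were higher, 2 of them without overlap (26.4% of all tested genes), and DESeq2 called 0 (1.5%). Both limma and edgeR had 2 at an unadjusted p under 0.05 (8.8% higher by limma) and no adjusted call. The median stood at 0.21 on the log2 scale and at 0.12 without WT 1. Smyd1, a methyltransferase needed to assemble myosin into sarcomeres, had 1832 and 1711 normalised counts in WT and 2040 and 2218 in Hoxb1Mu (0.27 ± 0.07, DESeq2 adjusted p = 0.0897). Hspb7, a cardiac small heat shock protein, had 709 and 787 in WT and 910 and 874 in Hoxb1Mu (0.26 ± 0.09, DESeq2 adjusted p = 0.327). In both genes the mutant libraries lay above the WT ones. Unc45b, the myosin chaperone of striated muscle, had 1700 and 1964 in WT and 1886 and 2247 in Hoxb1Mu, with overlapping groups (0.17 ± 0.11, DESeq2 adjusted p = 0.534). Cryab, αB-crystallin, which binds desmin and titin, had 1163 and 1873 in WT and 1678 and 888 in Hoxb1Mu (-0.27 ± 0.34, DESeq2 adjusted p = 0.892). Des and Cryab were both high in WT 2 and Hoxb1Mu 1 and low in WT 1 and Hoxb1Mu 2, with 1.99-fold and 2.11-fold between the highest and the lowest library. The order was shared by Tpm2, Neb and Pdlim3, whose libraries lay within 1.21-fold. The summed counts of 5 genes of primitive red blood cells were 466 and 15672 in WT and 2362 and 817 in Hoxb1Mu, also higher in WT 2 and Hoxb1Mu 1, and their part in the values of these genes was not tested. No difference between compartments was tested, since members are not replicates.

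Levels per kilobase of exon spread widely among members. The length was that of all annotated exons of a gene together, which can exceed its longest transcript. For Tnnt2 it was 7752 bases against 3330, and for Myl7 590 against 590, so the order of members depends on the length used. In the WT mean, Myl7 had 13794 normalised counts per kilobase, Actc1 10470 and Tpm1 3815, followed by Tnnc1 with 1922 and Myh6 with 1109. By their mean over the 4 libraries, Myl7 stood at percentile 99.8 and Actc1 at 99.7 of the tested genes with a known length. All other members stood lower on this scale, from 98.3 for Tpm1 to 0.503 for Neb. Other genes of heart muscle were spread between these, such as Myl2 at 68.4 and Csrp3 at 53.4. Lowest in the WT mean were Ttn with 22.8 normalised counts per kilobase, Lmod2 with 9.83 and Neb with 1.93. Per kilobase, Myh7 was below Myh6 in the WT mean (508 against 1109 normalised counts per kilobase) and in the Hoxb1Mu mean (1169 against 1906).

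Ratios within a library, which do not depend on its scaling, contrasted ventricular with atrial isoforms. Isoforms were grouped by the chamber they are named for, and chamber identity of the cells in these E8.5 libraries was not measured. The log2 ratio of Myh7 to Myh6 was -0.59 and -0.93 in WT and -0.30 and -0.38 in Hoxb1Mu, which in linear terms is 0.662, 0.525, 0.811 and 0.768. The groups did not overlap, and the difference was 0.42 on the log2 scale with a within-group SD of 0.17; it was 0.25 without WT 2. For the regulatory light chains, the log2 ratio of Myl2 to Myl7 was -3.96 and -4.56 in WT and -3.23 and -3.63 in Hoxb1Mu, a difference of 0.83 (SD 0.36) without overlap, and of 0.54 without WT 2. For the essential light chains, Myl3 to Myl4, it was -1.91 and -2.08 in WT and -1.87 and -1.94 in Hoxb1Mu. These groups overlapped, with a difference of 0.09 (SD 0.09) that was 0.0042 without WT 2, 0.18 without WT 1 and 0.054 without Hoxb1Mu 1. The mean log2 value of the 3 ventricular genes less that of the 3 atrial genes was -2.16 and -2.52 in WT and -1.80 and -1.98 in Hoxb1Mu, a difference of 0.45 (SD 0.21) that was 0.26 without WT 2. With 2 libraries against 2 an exact permutation test cannot go below a 2-sided p of 0.333, and this mean difference reached that value (exact permutation test, p = 0.333, and 0.467 after Benjamini-Hochberg adjustment over the 7 ratios).

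Cardiac and skeletal or fetal isoforms gave no common direction. The log2 ratio of Tnni3 to Tnni1 was -4.33 and -4.22 in WT and -3.63 and -4.04 in Hoxb1Mu, a difference of 0.44 (SD 0.21) without overlap, and of 0.24 without Hoxb1Mu 1. The log2 ratio of Actc1 to Acta1 was 3.72 and 3.92 in WT and 3.62 and 3.68 in Hoxb1Mu, a difference of -0.17 (SD 0.11), also without overlap, which was -0.068 without WT 2 and -0.27 without WT 1. That of Tnnt2 to Tnnt1 was 5.37 and 5.44 in WT and 5.43 and 5.32 in Hoxb1Mu, with overlapping groups and a difference of -0.03 (SD 0.07).

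The isoforms of each protein were also summed, a comparison chosen after the values were seen. The myosin heavy chains, Myh6 and Myh7 together, had 11152 and 12523 normalised counts in WT and 19438 and 26355 in Hoxb1Mu, 1.93-fold higher in the mean and 1.64-fold and 2.23-fold in the separate mutant libraries. Their partners differed by less. The regulatory light chains, Myl2 and Myl7, had 8621 and 8521 in WT and 10806 and 11993 in Hoxb1Mu (1.33-fold), and the essential light chains, Myl3 and Myl4, 6432 and 6222 in WT and 7586 and 8228 in Hoxb1Mu (1.25-fold). Actins were 1.30-fold, troponin I 1.27-fold and troponin T 1.19-fold higher. Within libraries the log2 ratio of myosin heavy chains to actins was -0.77 and -0.47 in WT and -0.21 and 0.09 in Hoxb1Mu, a difference of 0.56 (SD 0.21). Against the other 4 summed proteins the difference was 0.53 to 0.69, each without overlap and each at the smallest p the design allows (exact permutation test, p = 0.333). The difference to troponin I, 0.60, was 0.37 without Hoxb1Mu 2.

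**Figure D3:**
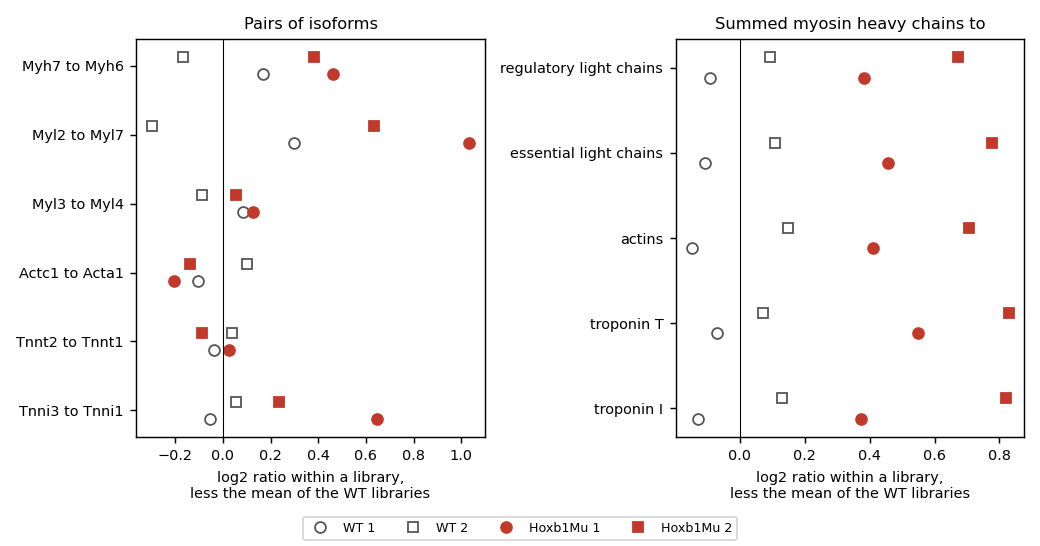
Points are libraries (open grey for WT, filled red for Hoxb1Mu, circles for replicate 1 and squares for replicate 2) and the horizontal axes show the log2 ratio within a library less the mean of the WT libraries. On the left, Myh7 to Myh6, Myl2 to Myl7 and Tnni3 to Tnni1 are higher in both Hoxb1Mu libraries and Myl3 to Myl4 overlaps; on the right, the summed myosin heavy chains are higher against all 5 other proteins in both Hoxb1Mu libraries.

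Members were also set against the mean log2 level of all 39 in the same library, again chosen after the values were seen. Centring on this mean balances higher and lower members by construction, so the values order the members and are read no further. The highest were Myh7 and Myl2, both by 0.82 on the log2 scale, followed by Smpx (0.50), Actn2 (0.49), Myh6 (0.40), Tnni3 (0.38) and Myom1 (0.27). The lowest were Cryab (-0.64), Fhl2 (-0.48), Des (-0.46), Tpm1 (-0.45), Pdlim3 (-0.42), Pdlim5 (-0.39), Tpm2 (-0.34) and Obsl1 (-0.31). In Cryab and Des the centred values of the groups overlapped. Actc1 (-0.0033) and Myl7 (-0.016) stayed near the mean.

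How many members were called depended on single libraries. Without WT 1 DESeq2 called 6 members higher (0.4% of tested genes) and without WT 2 also 6 (0.317%), against 17 without Hoxb1Mu 1 (0.761%) and 3 without Hoxb1Mu 2 (0.228%). In these fits a lone library stands for its group and is taken to vary like the other group. Myl2 and Actn2 were called in all 4 of them, and Myh7, Actc1 and Myom1 in 3. Myl3 and Tnni1 were called in none. Without Hoxb1Mu 1 the 5 genes Myh6, Ldb3, Nebl, Xirp1 and Ankrd1 joined. With limma, 19 members had an adjusted p under 0.05 without Hoxb1Mu 1 (1.45% of tested genes) and 1, Myh7, without Hoxb1Mu 2 (0.102%). The number of members above 0 stayed between 32 and 36 over the 4 fits.

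**Figure D4:**
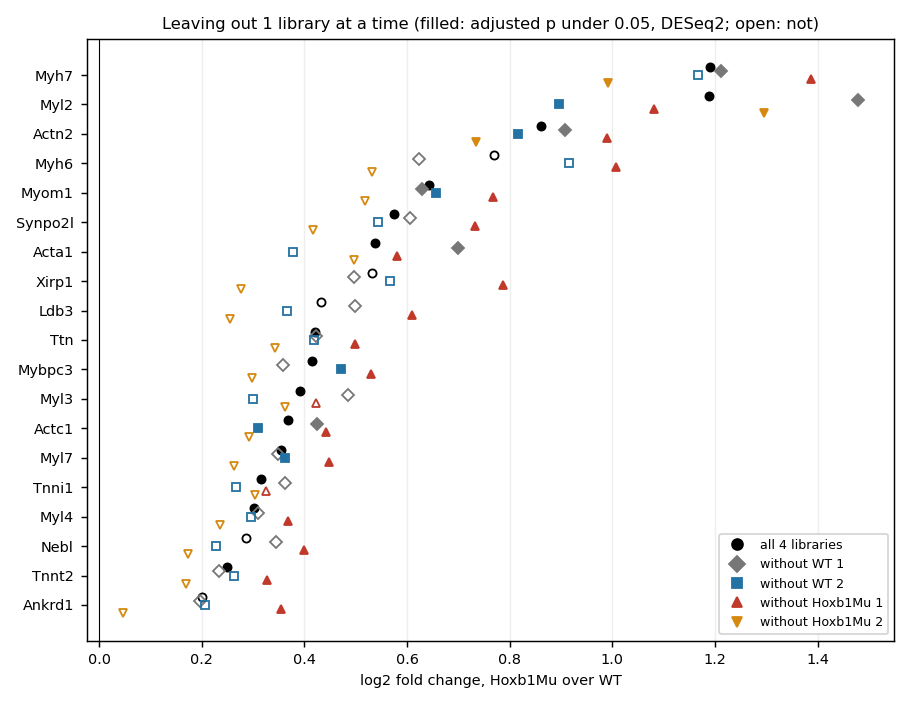
Rows are the 19 members called by DESeq2 with all 4 libraries or in any fit without 1 library, and the horizontal axis is the log2 fold change (Hoxb1Mu over WT), with filled points where the DESeq2 adjusted p was under 0.05. All points lie above 0, and the fit without Hoxb1Mu 1 (red) calls 17 of the genes where the fit without Hoxb1Mu 2 (orange) calls 3.

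Other genes of the sarcomere, from a list of 44 of which 35 were tested, differed by less. Of these 27 were higher and 8 lower, 15 were higher without overlap (26.4% of all tested genes), and the median log2 fold change was 0.18. DESeq2 called 2, both higher (1.5% of all tested genes), and gave no adjusted p to 15. With limma none was called, and 9 had an unadjusted p under 0.05, all higher (8.8%). Among the called genes was Mylk3, the cardiac kinase of the regulatory light chain, with 751 and 691 normalised counts in WT and 1019 and 1035 in Hoxb1Mu (0.51 ± 0.08 on the log2 scale, DESeq2 adjusted p = 0.00387). The tropomyosin genes of this list, Tpm3 and Tpm4, had log2 fold changes of -0.03 and -0.04, with overlapping groups, near those of Tpm1 and Tpm2.

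Markers of heart muscle and of other tissues differed between the groups as well. Of 16 tested cardiomyocyte genes outside the sarcomere, 13 were higher in both mutant libraries than in both WT ones (26.4% of all tested genes), and the median of the list was 0.35 on the log2 scale, beside 0.36 for the members. DESeq2 called 0 of them (1.5% of all tested genes higher) and gave no adjusted p to 8. By limma and by edgeR 0 were called, with 5 higher at an unadjusted p under 0.05 (8.8% higher by limma). The summed counts of these 16 genes were 30876 and 31185 in WT and 32472 and 35296 in Hoxb1Mu. Nppa, the atrial natriuretic peptide of working myocardium, had 9.56 and 7.69 normalised counts in WT and 49.2 and 40.6 in Hoxb1Mu. Of 13 cardiac transcription factors, 0 were higher without overlap and 5 were lower (26.4% and 27.1% of all tested genes), with a median of -0.07. Nkx2-5, a homeobox factor of all heart progenitors and muscle, had 1029 and 980 in WT and 831 and 1103 in Hoxb1Mu, and Gata4, a zinc finger factor of heart and endoderm, was called lower (log2 fold change -0.31 ± 0.05, DESeq2 adjusted p = 0.00292).

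Among the other cell types, the log2 median was 0.09 over 6 smooth muscle genes, 2 of them higher and 1 lower without overlap. Over 6 endothelial genes it was 0.06, with 3 higher and 1 lower without overlap. The shares over all tested genes were 26.4% higher and 27.1% lower without overlap. Of 7 genes listed as skeletal myogenic, 3 were tested, Pax3, Pax7 and Myf5, while Myod1 and Myog were not analysed here. Their median of 0.42 was the value of Pax3, which DESeq2 called higher (adjusted p = 0.0130). Myf5 had 11.5 to 27.7 normalised counts over the 4 libraries, with overlapping groups. The list was not read as a measure of skeletal muscle. All 15 yolk sac endoderm genes were lower without overlap, by a median of -1.11, and summed to 149932 and 143821 in WT and to 96475 and 49048 in Hoxb1Mu 1 and Hoxb1Mu 2. Of 8 neural crest genes, 6 were higher without overlap (26.4% of all tested genes), with a median of 0.51. DESeq2 called 5 of the 8, all higher (1.5%). The library with the higher sarcomere values, Hoxb1Mu 2, was also the one with the lower yolk sac endoderm sum, and the part of dissected tissue in the sarcomere values was not tested. Xist, the transcript of the inactive X chromosome in female cells, was at 26992 and 32024 in WT and 111 and 5935 in Hoxb1Mu, so sex of the pooled embryos and genotype cannot be told apart.

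**Figure D5:**
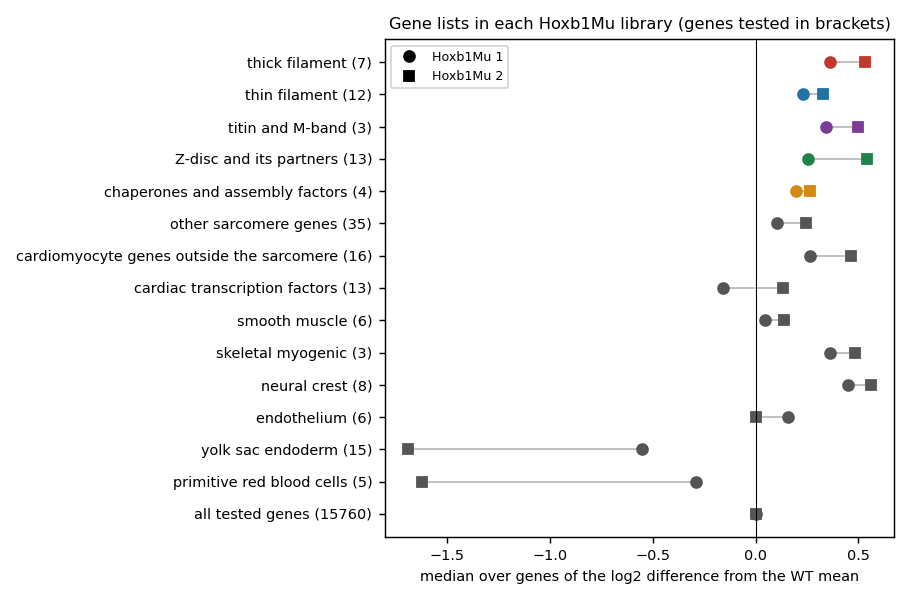
For each gene list, with the number of genes tested in brackets, circles (Hoxb1Mu 1) and squares (Hoxb1Mu 2) give the median over genes of the log2 difference from the WT mean. All 5 groups of members and the cardiomyocyte genes outside the sarcomere are above 0 in both libraries, cardiac transcription factors lie on both sides, and yolk sac endoderm genes are far below 0, more so in Hoxb1Mu 2.

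Some values could carry reads of other genes. Whether counting used the strand is not given in the sources used here, so reads of a member and of a gene on the opposite strand cannot be told apart. Tmod1 shared 39.8% of its 50-base windows with Tstd2 (log2 fold change -0.03), and Cryab 19.0% with Hspb2 (0.18). Myh6 shared 22.6% of its 50-base windows with Myh7, its neighbour on chromosome 14, and Myh7 22.2% with Myh6, so reads may have been lost or split between them. Tnni3 overlapped Dnaaf3 on the same strand, which was itself higher (0.90, mean of 75.9 normalised counts). Partners overlapping Myl3, Tnnc1, Myom1 and Obsl1, which are Pth1r, Nisch, Myl12a and Tmem198, had log2 fold changes of -0.34, 0.12, -0.09 and -0.06.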

How the data were processed

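Amplified cDNA of 4 pooled-embryo samples had been sequenced, with groups from the genotype labels and replicate numbers in order of deposit. Per the submitters' processing notes, tools were bcl2fastq 2.17.1.14, STAR 2.5.2, HTSeq, R 3.3.4 and DESeq2, with the build mm10; the annotation release is not given in the sources used here. The authors deposited a normalised signal per gene and library, read counts divided by a size factor, with its mean. Their log2 column (fold change), score column (Wald statistic) and p-value columns, deposited beside it, were not used.

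Values were whole multiples of a step per library (tolerance 0.001 read, 100% of values), which gave back 31331595, 34244827, 31711309 and 34383760 reads for WT 1, WT 2, Hoxb1Mu 1 and Hoxb1Mu 2. Genes with a mean of at least 10 were tested (15760; 43 left out, and 13 symbols turned into dates were tested unnamed) with limma-trend (limma 3.58.1, R 4.3.3) on log2(value + 1), Benjamini-Hochberg adjusted over all tested genes. The recovered reads were also tested with DESeq2 1.42.0 and with the quasi-likelihood test of edgeR 4.0.16, and scripts were tested on simulated data. Alternatives were a pseudocount of 10, no filter or a mean of 100, TMM factors and each library left out. Values per library were given for members called by DESeq2, isoform pairs, the 2 highest and 2 lowest log2 fold changes of each compartment of at least 4 genes, and members whose call rests on 1 library. Exon lengths and shared windows came from GENCODE vM21 and promoters from RefSeq. Amplified reads without molecular identifiers are not independent molecules. Members and lists were chosen with earlier results of these data known. The values of 1 other sarcomere gene are not reported here.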

Additional observations from a re-analysis of the deposited data

How the results depend on the processing

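The count of members with an adjusted p under 0.05, 0 by limma, was 14 with DESeq2 on the recovered reads and between 0 and 19 with 1 library left out (19 without Hoxb1Mu 1, 1 without Hoxb1Mu 2). The DESeq2 count of 14 was between 3 and 17 in these fits, 6 without either WT library, 17 without Hoxb1Mu 1 and 3 without Hoxb1Mu 2. Of the other sarcomere genes, DESeq2 called 2, both higher (1.5% of all tested genes), and limma with all 4 libraries called 0 (0%). The median log2 fold change of the members, 0.36, was 0.28 to 0.41 with 1 library left out, that of the thick filament 0.36 to 0.53, of the thin filament 0.23 to 0.33 of the Z-disc genes 0.26 to 0.54 and of the chaperones and assembly factors 0.12 to 0.26. The ventricular less atrial difference, 0.45, was 0.26 to 0.63, that of Myh7 to Myh6 0.25 to 0.59, of Myl2 to Myl7 0.54 to 1.13, of Myl3 to Myl4 0.0042 to 0.18, of Actc1 to Acta1 -0.27 to -0.068 and of Tnni3 to Tnni1 0.24 to 0.64. The difference in the log2 ratio of Tnnt2 to Tnnt1 (-0.03) was -0.087 to 0.024 and changed sign without WT 2 or Hoxb1Mu 2. Among single members, Tpm2, Neb, Pdlim3, Pdlim5, Des and Cryab, none of them called, changed sign in these fits, with log2 fold changes of -0.0076 to 0.074, -0.0061 to 0.24, -0.16 to 0.063, -0.060 to 0.016, -0.58 to 0.41 and -0.73 to 0.18 in that order. Under a pseudocount of 10, no filter, TMM factors and the edgeR test all 39 members kept their direction and stayed without an adjusted call, as did the 36 that passed a mean of 100. These scalings moved the median of all genes by -0.0095 (a mean of 100) to 0.0053 (edgeR). The cause of these changes was not tested. No paired analysis was possible because the labels give the libraries no shared replicate numbers. With 2 libraries a group no exact test over libraries could pass 0.05, and the 3 members of lowest counts (Tcap, Lmod2, Neb) had no adjusted p from DESeq2.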
